A study of Mus musculus with 8 samples.

Results

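The collagen gene family was examined in whole-liver RNA from mice that lacked both Zfp36l1 and Zfp36l2 in the liver (dKO) and from control mice. Members were all rows whose mouse symbol has the form of a collagen chain gene, Col followed by a type number, the letter a and a chain number. This gave 40 genes among the 22052 of the deposited table. Of 44 such symbols in the annotation's name table, Col2a1, Col9a1, Col19a1 and Col26a1 were not analysed here. The 4 dKO mice had the genotype Zfp36l1fl/fl/Zfp36l2fl/fl/Alb-Cre, in which the albumin promoter drives Cre recombinase, and this promoter is active in hepatocytes. The 4 control mice had the genotype Zfp36l1fl/fl/Zfp36l2fl/fl, with no Cre. All 8 were C57BL6 males aged 8 weeks, and all had received corn oil into the peritoneum, so no group without oil was analysed here. Each library is 1 numbered mouse. Whole liver holds stellate cells, fibroblasts, endothelial cells, bile duct cells and macrophages beside hepatocytes. The albumin-driven Cre is not directed at stellate cells, fibroblasts, endothelial cells or macrophages. Whether it acted in bile duct cells was not measured here. In such bulk RNA, a change in the number of cells of a type and a change in RNA per cell cannot be told apart.

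Collagens are triple-helical proteins of the extracellular matrix, each built from 3 chains that wind around each other and carry glycine at regular steps. Fibrillar collagens form the cable-like fibrils of connective tissue, and types I and III are the main ones of liver scars. Type IV forms the sheet of basement membranes, type VI forms beaded filaments, types VIII and X form short-chain networks, and the FACIT types (fibril-associated collagens with interrupted triple helices) sit on the surface of fibrils. Stellate cells and portal fibroblasts are the known main makers of fibrillar collagen in injured liver, while hepatocytes are a known source of type XVIII. The proteins ZFP36L1 and ZFP36L2 bind RNA: they recognise AU-rich elements, mostly in the untranslated 3' part of an mRNA (3' UTR), and speed the loss of that mRNA.

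The libraries held 15253827 to 19299556 reads in genes. Levels are normalised read counts, which are reads divided by 1 size factor per library, and 3 reads in a library correspond to 2.55 to 3.43 on this scale. Zfp36l1 stood at 226 ± 27.6 in dKO and 1370.2 ± 194 in control livers and Zfp36l2 at 796 ± 94.4 in dKO and 1584 ± 393 in control livers (SD, n = 4 each, log2 changes -2.60 and -0.96). Both targeted genes were therefore lower in the livers labelled dKO. The hepatocyte marker albumin (Alb) was far above every collagen, at 824048 ± 26104 in dKO and 773159.8 ± 55865 in control livers, as the tissue label implies. Control 4 stood apart from the other controls on the first principal component over 14132 genes, which held 74.5% of the variance: dKO livers scored -68.9 to -57.5, control 1 to 3 scored 67.7 to 76.5 and control 4 scored 43.3. For many of the results that this liver touches, values without it are given as well.

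Most collagen genes were higher in dKO livers. Of the 40 members, all of which had a mean of 0.5 or more and were tested, 24 rose, 3 fell and 13 passed the test in neither direction (limma on log2(value + 0.5), Benjamini-Hochberg adjusted p under 0.05 over all 20055 genes tested). Over all genes tested, 21.2% were higher and 17.0% lower, together 38.2%. The median log2 change of the 40 members was 1.67, and that of all genes tested was 0.031. All 24 that rose had a ratio of group means of 2 or more, which, with the same test, held for 12.7% of all genes. Of the 19 members with a mean of 100 or more, 15 rose and 3, Col18a1, Col5a3 and Col27a1, fell, against 24.0% higher and 28.2% lower (52.2% in either direction) of all genes at that level. Among fibrillar collagens 6 of 10 rose and 2 fell, among basement membrane collagens 6 of 9 rose and 1 fell, among network collagens 6 of 9 rose and 0 fell, among FACIT collagens 5 of 7 rose and 0 fell, and of the other 5 members 1 rose and 0 fell. The dKO and control values did not overlap for 25 members, 23 of them higher and 2 lower in dKO livers, against 19.4% of all genes tested for higher and 16.9% for lower. The count of members that rose was 24 without control 4 as well. Log2 changes are differences of group means of log2(value + 0.5), and changes given as folds are ratios of group means. These measures can differ in either direction where values vary within a group, as for Col1a1, with a log2 change of 3.71 and a fold of 8.92. The added 0.5 also shrinks the log2 changes of genes with few reads.

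**Figure D1:**
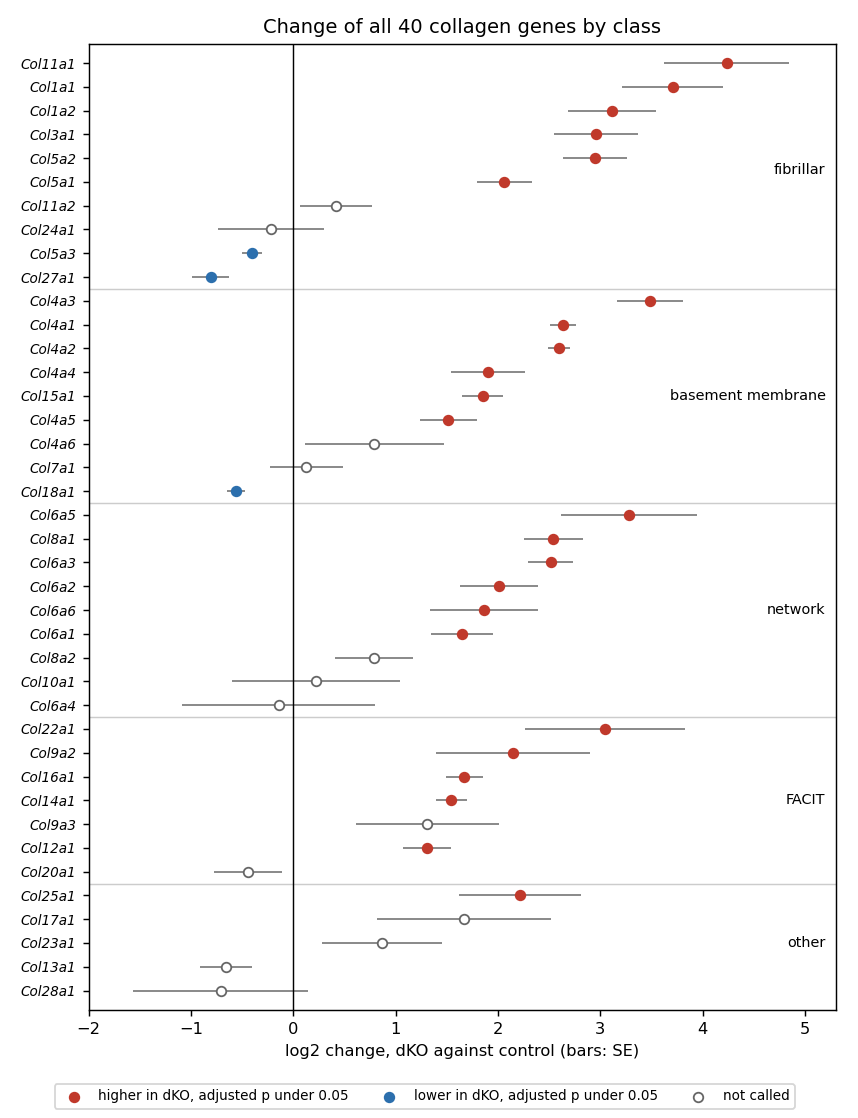
Log2 change of each of the 40 collagen genes, dKO against control (n = 4 livers each), with its standard error as a bar and the genes grouped by class; filled points passed the limma test at an adjusted p under 0.05. The 24 red points lie to the right of 0, and the 3 blue points, Col5a3, Col27a1 and Col18a1, lie between -0.81 and -0.40; the positions of Col11a1, Col22a1 and Col9a2, with 1 or 2 control reads in all, depend on the pseudocount.

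Because the deleted proteins bind AU-rich elements, the 3' UTRs of the 40 members were searched for TATTTAT, the core of such elements written as DNA, on the sense strand. It was present in 10 of 40 members (25%), against 30.1% of the 15417 tested genes with an annotated 3' UTR. Of the 24 members that rose, 7 held it, of the 3 that fell 0 did, and among the remaining 13 the number was 3. The longest annotated 3' UTR had a median of 1079.5 bases in collagens and 1096 in all these genes. The share in collagens was therefore near that of all genes. A match each in Col3a1 and Col5a2, the abundant fibrillar members that hold one, and in Col4a3, the type IV member that does, are shown within 30 bases of mRNA from the GENCODE M21 transcripts, 5′ to 3′, with the match in capitals, in the order chr1:45348847-45348853, plus strand, then chr1:45375753-45375759, minus strand, and chr1:82721793-82721799, plus strand (GRCm38, positions of the match).
Col3a1: taaattccagtTATTTATttccaaactttt
Col5a2: acgttgcttagTATTTATgagaaaattctt
Col4a3: cattattaattTATTTATaaaagtattaaa
The match in Col3a1 starts at base 100 of its 3' UTR, that in Col5a2 at base 325 and that in Col4a3 at base 2909. In the annotated 3' UTRs of Col1a1, Col1a2, Col4a1 and Col4a2, which also rose, these letters were not found. A match is a description of the sequence, and no match says only that these letters are not in the annotated UTR.

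The summed collagen reads were 52165, 60252, 61489 and 60645 in dKO 1 to 4, against 34161, 29457, 32651 and 39791 in control 1 to 4. The sum was higher in every dKO liver than in any control, and it made up 0.348% of all normalised reads in dKO and 0.191% in control livers (group means). The make-up of the sum differed more than its size. Col18a1 alone took 34.4, 24.6, 26 and 28% of collagen reads in dKO 1 to 4, against 76.1, 76.7, 76.5 and 58.6% in control 1 to 4. The share of Col1a1 and Col1a2 together was 19.7 ± 1.77% in dKO and 4.16 ± 3.78% in control livers. For Col3a1 it was 19.7 ± 1.23% in dKO and 5.38 ± 4.52% in control livers. Col4a1 and Col4a2 together held 13.3 ± 0.866% in dKO and 3.77 ± 0.506% in control livers. Control 4 lay between the groups for the first 3 of these shares and within the other controls for type IV. Without Col18a1, the sum of the other 39 genes was 4.31 times as high in dKO as in control livers, against 1.72 times with it. The control mean of the sum of these 39 genes was 9793 with control 4 and 7569 without that liver. Within the basement membrane class the fall of Col18a1 offset the rises of the type IV chains, so that the class sum was 25282 ± 933 in dKO and 25787 ± 1447 in control livers. These sums are descriptions and were not tested.

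**Figure D2:**
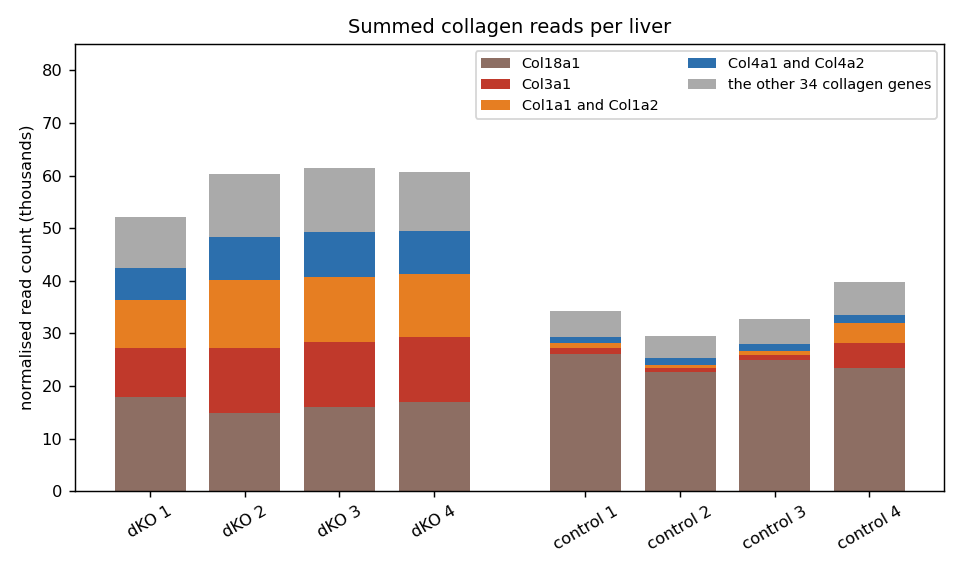
Summed normalised reads of all 40 collagen genes in each liver on a linear vertical axis from 0, split by gene. The Col18a1 block is the tallest in all 8 livers, the dKO bars are topped by larger type I, III and IV blocks, and control 4 has larger type I and III blocks than the other controls.

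Read per kilobase of mRNA, the order of the genes also differed. Col18a1 had the highest level per length in both groups, at 2935 ± 239.9 normalised reads per kilobase in dKO and 4329 ± 276 in control livers. By group mean Col3a1 came next in both, at 2082 ± 271 in dKO and 353 ± 345 in control livers. In dKO livers Col1a2 and Col1a1 followed, at 1034 ± 171 and 1021 ± 146 per kilobase, which did not differ beyond their spread, and then Col4a1 and Col4a2. The SD of Col3a1 in control livers is nearly as large as its mean because of control 4, and its place 2 among the controls rests on that liver. In control 1 to 3 Col5a3 had 1854, 1607 and 1563 normalised reads, against 1190.1, 877 and 953 for Col3a1. With mRNAs of 6119 and 5564 bases, Col5a3 was above Col3a1 per kilobase in these 3 livers and below it in control 4. By group mean Col5a3 stood at place 3 in control livers, at 264 ± 28.1 per kilobase, and at place 8 in dKO livers. Lengths are those of the annotated mRNA with the longest coding part, and other isoforms would shift the levels.

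Types I and III, the main collagens of scar fibrils, rose by log2 changes of 2.96 to 3.71. Col1a1 (chromosome 11, 94936224 to 94953042, plus strand, mm10), the alpha 1 chain of type I, had 4766, 6582, 6534 and 6348 in dKO 1 to 4, against 439, 212, 266 and 1799 in control 1 to 4. All 4 dKO values lay above all controls, and control 4 lay well above the other controls. The change was 8.92-fold in group means (log2 change 3.71, SE 0.49, limma adjusted p = 7.9e-05), and the log2 change was 4.36 without control 4. Its partner Col1a2, the alpha 2 chain, had 4235, 6358, 5906 and 5612 in dKO 1 to 4, against 580.2, 359, 366 and 2097 in control 1 to 4 (log2 change 3.11, SE 0.43, limma adjusted p = 0.00011; 3.69 without control 4). The groups of Col1a2 were likewise apart, with control 4 highest among the controls. Col3a1 (chromosome 1, 45311538 to 45349706, plus strand), which forms type III homotrimers and has 1 of the TATTTAT matches printed, had 9322, 12399, 12344 and 12278 in dKO 1 to 4, against 1190.1, 877, 953 and 4838 in control 1 to 4. Again dKO 1 was the lowest dKO liver and control 4 the highest control, and the groups did not overlap (log2 change 2.96, SE 0.41, limma adjusted p = 0.000117; 3.53 without control 4). Set against control 4 alone, the dKO means were 3.37 times as high for Col1a1, 2.64 times for Col1a2 and 2.39 times for Col3a1.

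**Figure D3:**
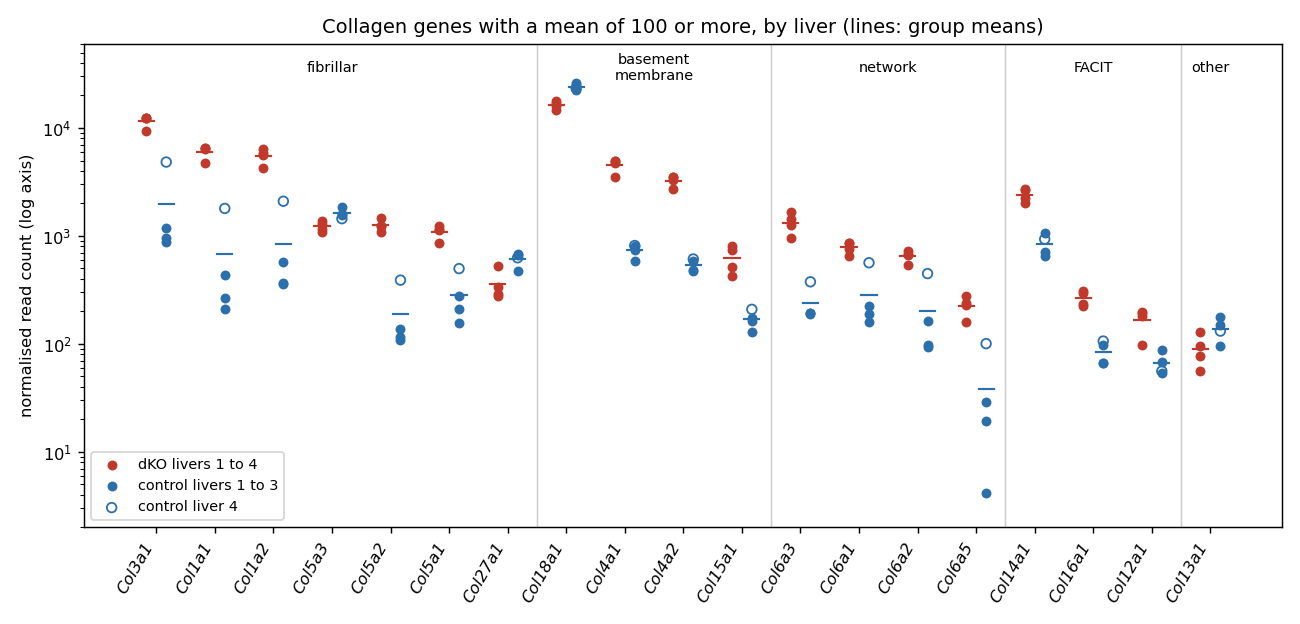
Normalised read counts (log axis) of the 19 collagen genes with a mean of 100 or more in each of the 8 livers, with dKO in red, control 1 to 3 in filled blue and control 4 as an open circle; short lines are group means. Control 4 lies above the other controls for types I, III, V (Col5a1 and Col5a2) and VI, and close to them for Col4a1, Col4a2, Col14a1 and Col18a1.

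Type V collagen, which nucleates type I fibrils and limits their diameter, was split among its 3 chains. Col5a1 had 868, 1231, 1159.9 and 1126 in dKO 1 to 4, against 211, 156, 279 and 499 in control 1 to 4 (log2 change 2.06, SE 0.27, limma adjusted p = 7.0e-05, and a log2 change of 2.37 without control 4). Col5a2 had 1080.02, 1244, 1227 and 1473 in dKO 1 to 4, against 117, 137, 108 and 389.99 in control 1 to 4 (log2 change 2.95, SE 0.31, limma adjusted p = 1.4e-05, and a log2 change of 3.37 without control 4). Both rose with no overlap, and control 4 was the highest control for each. Col5a3, the remaining chain of this type, went the other way, with 1388, 1279.6, 1151 and 1080.05 in dKO 1 to 4, against 1854, 1607, 1563 and 1446 in control 1 to 4. It fell to 75.7% of the control mean, with every dKO value below every control (log2 change -0.40, SE 0.098, limma adjusted p = 0.00593). Col27a1, a fibrillar collagen best known from cartilage, fell as well, with 276, 334, 523 and 292 in dKO 1 to 4, against 679, 469.9, 662 and 628 in control 1 to 4 (log2 change -0.81, SE 0.18, limma adjusted p = 0.00391). The dKO 3 value overlapped the lowest control, control 2. Col11a1, a chain of the cartilage collagen XI, had 57 reads in the dKO livers together and 1 in the controls (normalised ratio 49.7, exact 95% counting interval 8.58 to 1999), and the call that it rose (limma adjusted p = 0.000157) rests on these few reads. Such intervals cover counting error only. The other chain of type XI, Col11a2 (25.7 ± 4.81 in dKO and 20.3 ± 8.74 in control livers), and Col24a1 (9.22 ± 2.47 in dKO and 12.7 ± 9.24 in control livers) did not pass the test (limma adjusted p = 0.385 and 0.776).

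Type IV, the sheet-forming collagen of basement membranes, had the 2 members with the smallest adjusted p, Col4a2 and Col4a1. The genes of these common chains lie head to head on chromosome 8 (mm10), with Col4a1 on the minus strand from 11198423 to 11312826 and Col4a2 on the plus strand from 11312805 to 11449287, so that their annotated starts overlap by 22 bases. Their transcripts are read in opposite directions from a promoter known to serve both. Col4a1 had 3536, 4956, 4950.4 and 4788 in dKO 1 to 4, against 582, 739, 800.4 and 815 in control 1 to 4. Col4a2 had 2718, 3282, 3506 and 3539.9 in dKO 1 to 4, against 489, 473, 582 and 612 in control 1 to 4. For both chains every dKO liver was several times above every control, and control 4 lay at 1.15 and 1.19 times the mean of control 1 to 3. The changes were 6.21-fold (log2 change 2.63, SE 0.13, limma adjusted p = 3.2e-08) and 6.05-fold (log2 change 2.60, SE 0.11, limma adjusted p = 1.2e-08). The rarer chains, known from kidney, lung and inner ear, were measured at lower levels. Col4a3 had 191, 126, 112 and 256 in dKO 1 to 4, against 10.3, 13.3, 11.6 and 24 in control 1 to 4 (log2 change 3.49, SE 0.32, limma adjusted p = 4.3e-06). Its partner on the opposite strand, Col4a4, whose annotated start lies 71 bases away, had 88.5, 60.1, 32.4 and 95.9 in dKO 1 to 4, against 14.4, 14.4, 13.7 and 27.4 in control 1 to 4 (log2 change 1.90, SE 0.37, limma adjusted p = 0.00124). Both rose with no overlap and varied more than 2-fold among dKO livers, with dKO 4 highest and dKO 3 lowest for each. Another annotated gene, C430014B12Rik, covers 5.65% of the exon bases of Col4a3, and the sources used here do not say whether reads were counted by strand, so reads there could come from either gene. Col4a5 on the X chromosome rose as well, with 147, 117, 159 and 143 in dKO 1 to 4, against 42.1, 46.2, 31.6 and 93.8 in control 1 to 4 (log2 change 1.51, limma adjusted p = 0.000881). Its neighbour Col4a6 stood at 19 ± 4.74 in dKO and 17 ± 18.3 in control livers and did not pass the test (limma adjusted p = 0.392), with control 4, at 43.5, above all dKO livers. Without control 4 its log2 change was 1.46 (limma adjusted p = 0.0692), against 0.79 with it.

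The other basement membrane members moved in different directions. Col18a1 (chromosome 10, 77052178 to 77166548, minus strand), whose C-terminal fragment is endostatin, was the most abundant collagen, with 17929, 14802, 15971 and 16977 in dKO 1 to 4, against 25980.3, 22595, 24989 and 23326 in control 1 to 4. It fell to 67.8% of the control mean with no overlap (log2 change -0.56, SE 0.091, limma adjusted p = 0.000354). With quantile normalization its log2 change was -0.22 and the call was lost (limma adjusted p = 0.0582). The gene has long and short isoforms with separate promoters, which gene counts do not separate. Col15a1, the closest relative of type XVIII and a collagen of vascular basement membranes, rose instead, with 429, 736, 807 and 513 in dKO 1 to 4, against 163, 174, 129 and 209 in control 1 to 4 (log2 change 1.85, SE 0.20, limma adjusted p = 1.4e-05). Its groups did not overlap. Col7a1, the anchoring fibril collagen of skin, was at 20.8 ± 4.94 in dKO and 19.8 ± 7.43 in control livers (limma adjusted p = 0.813). Endothelial markers, listed here because vessels make basement membrane, were mixed: 4 of the 10 tested rose, 2 fell and 4 passed in neither direction (median log2 change 0.12). The shares over all genes tested were 21.2% higher and 17.0% lower, and 0 to 3 of these markers fell when 1 liver was left out.

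Type VI chains form beaded filaments between basement membrane and fibrils. Col6a1 had 646, 867, 859 and 763 in dKO 1 to 4, against 226, 159, 188 and 565 in control 1 to 4 (log2 change 1.64, limma adjusted p = 0.000902; 2.04 without control 4). Col6a2 had 543, 727, 680.4 and 666 in dKO 1 to 4, against 163, 98.5, 93.6 and 448 in control 1 to 4 (log2 change 2.01, limma adjusted p = 0.0011; 2.50 without control 4). For both, control 4 came close to the lowest dKO liver, dKO 1, without reaching it. Col6a3, the longest of the main chains, which also gives the fragment endotrophin, had 949, 1443, 1652 and 1266 in dKO 1 to 4, against 194, 191, 192 and 376 in control 1 to 4 (log2 change 2.51, SE 0.22, limma adjusted p = 2.6e-06). Its control 4 value lay above the other controls and far below dKO 1, and the log2 change was 2.75 without control 4. Col6a5, a chain related to Col6a3, had 279.6, 161, 228 and 239 in dKO 1 to 4, against 28.8, 19.5, 4.21 and 101 in control 1 to 4 (log2 change 3.28, SE 0.66, limma adjusted p = 0.00178). Its log2 change was 2.52 without control 3, the lowest control, and 3.99 without control 4. Col6a6 had 87.5, 50.9, 92.8 and 66.1 in dKO 1 to 4, against 33.9, 10.3, 7.36 and 54.9 in control 1 to 4, with overlap between control 4 and dKO 2 (log2 change 1.86, limma adjusted p = 0.0138), and without dKO 1 the call was lost (limma adjusted p = 0.0593). Col6a4 had 5 reads in the dKO livers together and 5 in the controls. Among the short-chain collagens, Col8a1, a collagen of vessel walls, rose with 67.4, 80.4, 78.3 and 94 in dKO 1 to 4, against 8.21, 13.3, 13.7 and 20.6 in control 1 to 4 (log2 change 2.54, SE 0.29, limma adjusted p = 2.4e-05). Its partner Col8a2 stood at 21 ± 7.26 in dKO and 12 ± 4.00 in control livers (limma adjusted p = 0.127), and Col10a1, a marker of growth-plate cartilage, had 4 reads in dKO livers and 2 in controls.

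Of the 7 FACIT collagens 5 rose, with a median log2 change of 1.54 for the 7. Col14a1, which binds type I fibrils, had 2007, 2656, 2729 and 2266 in dKO 1 to 4, against 648, 704, 1073 and 934 in control 1 to 4 (log2 change 1.54, SE 0.15, limma adjusted p = 7.3e-06). The groups were apart, and control 3, not control 4, was the highest control. Col16a1 had 226, 308, 298 and 233 in dKO 1 to 4, against 97.6, 66.7, 67.3 and 106 in control 1 to 4 (log2 change 1.67, limma adjusted p = 1.7e-05). Col12a1, a stress-responsive relative of Col14a1, had 98.5, 181, 199 and 194 in dKO 1 to 4, against 87.3, 68.7, 53.6 and 56 in control 1 to 4 (log2 change 1.31, limma adjusted p = 0.000829). Its lowest dKO liver, dKO 1, exceeded the highest control, control 1, by a small margin. Col22a1, known from tissue junctions of muscle, had 31 reads in dKO livers and 2 in controls (normalised ratio 13.5, 95% counting interval 3.44 to 117, limma adjusted p = 0.00786). Both control reads came from control 2, and the log2 change was 3.63 without that liver, against 3.04 with it. Col9a2, a chain of cartilage type IX, had 21 and 2 reads (ratio 9.16, interval 2.24 to 80.6). Most of its dKO reads came from dKO 4, and its limma adjusted p of 0.0400 became 0.13 without that liver (log2 change 1.55, against 2.14). Col20a1 (19.7 ± 7.19 in dKO and 26.4 ± 6.45 in control livers) and Col9a3 (9.06 ± 6.06 in dKO and 3.67 ± 3.12 in control livers) did not pass the test (limma adjusted p = 0.32 and 0.162).

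Among the transmembrane collagens, Col25a1, best known from motor neurons and muscle innervation, rose, with 46.3, 29.6, 18.7 and 16.8 in dKO 1 to 4, against 1.03, 8.21, 8.41 and 8.01 in control 1 to 4 (log2 change 2.21, limma adjusted p = 0.0102). Its dKO values ranged over nearly 3-fold, control 1 held 1 read, and the log2 change was 1.59 without that liver. Col13a1, a surface collagen of cell junctions, had 56.3, 76.7, 95.4 and 129 in dKO 1 to 4, against 178, 149.8, 95.7 and 132 in control 1 to 4. Its groups overlapped and it did not pass the test (log2 change -0.66, limma adjusted p = 0.0558), although it did without dKO 4 (adjusted p = 0.018), without control 3 (0.0263), with quantile normalization (0.0109) and with DESeq2 (0.0442). Col23a1 (19 ± 10.4 in dKO and 10.4 ± 6.89 in control livers) and Col17a1, the hemidesmosome collagen of skin (19 reads in dKO and 7 in control livers), did not pass the test. Neither did Col28a1 (13 and 14 reads), which is not classed as transmembrane here. In all, 10 members had fewer than 3 reads in 1 library or more. They were Col4a6 and Col25a1 in 1 library each, Col9a3 in 2, Col11a1, Col22a1, Col28a1 and Col17a1 in 4, Col9a2 and Col6a4 in 6 and Col10a1 in 7, and for these a low value is not a sign of absence.

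Chains that assemble with each other need not change by the same factor, so 6 ratios of normalised reads, with no correction for length, were formed within each liver and compared by exact permutation of the group labels (2-sided, 70 ways to label the livers), which cannot go below p = 0.0286, with Benjamini-Hochberg adjustment over the 6. Col4a1 over Col4a2 was 1.3, 1.51, 1.41 and 1.35 in dKO 1 to 4, against 1.19, 1.56, 1.38 and 1.33 in control 1 to 4. The control ratios spanned those of all dKO livers (log2 difference 0.034, exact permutation p = 0.743, adjusted p = 0.743), so no change in it was detectable with these 8 livers. Col1a1 over Col1a2 was 1.13, 1.04, 1.11 and 1.13 in dKO 1 to 4, against 0.758, 0.591, 0.727 and 0.858 in control 1 to 4. The ratio was higher in all dKO livers (log2 difference 0.60, exact permutation p = 0.0286, adjusted p = 0.0429). The textbook type I molecule takes more alpha 1 than alpha 2 chains, but a ratio of reads without correction for length does not give chain numbers. Per kilobase, the means of Col1a1 and Col1a2 were 1021 and 1034 in dKO livers and 115 and 159 in control livers. Col3a1 over Col1a1 was 1.96, 1.88, 1.89 and 1.93 in dKO 1 to 4, against 2.71, 4.13, 3.58 and 2.69 in control 1 to 4. Here all dKO livers were lower and lay close together (log2 difference -0.75, exact permutation p = 0.0286, adjusted p = 0.0429). Col5a1 over Col5a2 was 0.804, 0.99, 0.945 and 0.764 in dKO 1 to 4, against 1.8, 1.13, 2.57 and 1.28 in control 1 to 4. It was lower in all dKO livers (log2 difference -0.88, exact permutation p = 0.0286, adjusted p = 0.0429). Col6a3 over Col6a1 was 1.47, 1.66, 1.92 and 1.66 in dKO 1 to 4, against 0.859, 1.2, 1.02 and 0.666 in control 1 to 4. It was higher in all dKO livers (log2 difference 0.87, exact permutation p = 0.0286, adjusted p = 0.0429). For Col6a1 over Col6a2 the groups overlapped (log2 difference -0.36, exact permutation p = 0.0571, adjusted p = 0.0686). The 4 ratios that differed kept their direction without any 1 liver, but without any 1 of the dKO livers, when 35 assignments remain, their adjusted p was 0.0571 to 0.0857.

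**Figure D4:**
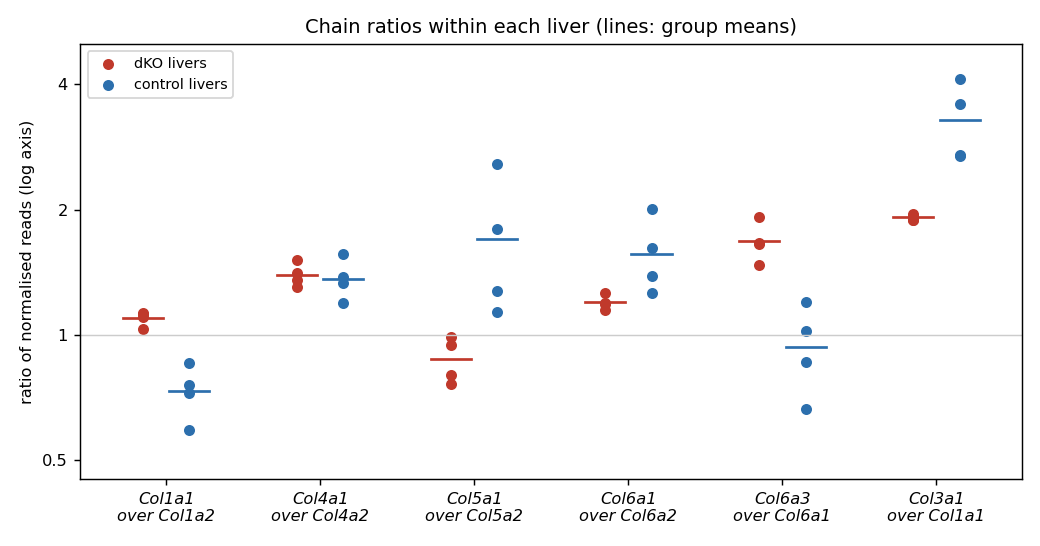
Ratio of normalised reads of 2 collagen genes within each liver (log axis), dKO in red and control in blue, with group means as lines. The groups are apart for Col1a1 over Col1a2, Col5a1 over Col5a2, Col6a3 over Col6a1 and Col3a1 over Col1a1, and overlap for Col4a1 over Col4a2 and Col6a1 over Col6a2.

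The same livers stood out for many members. Among the 15 members with a mean of 100 or more that rose, dKO 1 was the lowest dKO liver for 14 and control 4 the highest control for 13. Control 4 stood at 2.32 to 5.88 times the mean of control 1 to 3 for the 5 fibrillar members that rose with a mean of 10 or more. The range was 1.75 to 5.76 for the 6 network members, 1.15 to 2.35 for the 6 basement membrane members and 0.802 to 1.38 for the 3 FACIT members. Markers of the cells known to make these collagens were read beside them, and their counts stand against 21.2% higher and 17.0% lower over all genes tested, or 24.0% and 28.2% over genes with a mean of 100 or more. Of portal fibroblast and mesothelial markers, 6 of the 12 tested rose, 0 fell and 6 passed in neither direction (median log2 change 1.47), with summed levels of 1456 to 1663 in dKO livers, 256 to 551 in control 1 to 3 and 1330.1 in control 4. The 6 that rose were Thy1, Eln, Entpd2, Mfap4, Dpt and Cd34. The mesothelial markers Msln, Upk1b, Upk3b, Wt1 and Gpm6a, and the fibroblast marker Gli1, did not pass with all 8 livers. Entpd2, an enzyme that marks portal fibroblasts, stood at 177 ± 41.9 in dKO and 55.7 ± 19.8 in control livers (log2 change 1.69) and Thy1, a surface protein of fibroblasts, at 104 ± 21.7 in dKO and 19.2 ± 12.6 in control livers (log2 change 2.62). Of myofibroblast and smooth muscle markers, 2 of the 8 tested rose, 0 fell and 6 passed in neither direction (median log2 change 0.14), with sums of 1255 to 2125 in dKO livers, 338 to 848 in control 1 to 3 and 1889 in control 4. Tnc, the matrix protein tenascin C, and Tagln were those that rose, and Acta2, the actin that marks myofibroblasts, stood at 367 ± 106 in dKO and 223 ± 200.4 in control livers (limma adjusted p = 0.145). In control 4 the sums of both lists were above those of the other controls, as types I, III and VI were. Of stellate cell markers, 6 of the 14 tested rose, 4 fell and 4 passed in neither direction (median log2 change 0.18), with sums of 5647 to 6180.1 in dKO livers, 4147 to 6226 in control 1 to 3 and 5607 in control 4. Pdgfrb, Cygb and Rgs5 rose and Ecm1 fell. Ecm1 stood at 837 ± 87 in dKO and 1995 ± 470 in control livers. It had the highest control mean of the list, so the sums of this list depend much on Ecm1. Lrat, a marker of quiescent stellate cells, stood at 247 ± 40.4 in dKO and 232 ± 65.6 in control livers. Without control 4, of the portal fibroblast and mesothelial markers 7 rose and 0 fell (median 1.87), of the myofibroblast and smooth muscle markers 3 rose and 0 fell (median 0.68) and of the stellate cell markers 5 rose and 4 fell (median 0.28). With all 8 livers, the share of myofibroblast markers that rose and that of stellate markers that fell were near those of genes with a mean of 100 or more. Not every marker of these lists has such a mean, and the stellate share that fell was above the 17.0% of all genes tested. No marker of these lists was at 0 in all 8 livers, and their part in the collagen results was not tested.

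Markers of other cells that a liver holds were read against the same shares over all genes. Of bile duct markers, 9 of the 10 tested rose, 0 fell and 1 passed in neither direction (median log2 change 1.85), and their sums were 8965 to 13317 in dKO livers, 1039 to 1219.9 in control 1 to 3 and 1939 in control 4. Spp1 made up most of that sum, at 9498 ± 1900.4 in dKO and 705 ± 365 in control livers. Of macrophage markers, 8 of the 10 tested rose, 0 fell and 2 passed in neither direction (median log2 change 1.77), with sums of 9876 to 14687 in dKO livers, 5168 to 6269 in control 1 to 3 and 5965 in control 4. Of hepatocyte markers, 2 of the 10 tested rose, 4 fell and 4 passed in neither direction (median log2 change -0.23), with sums of 1252848 to 1321277 in dKO livers, 1230658 to 1296788 in control 1 to 3 and 1346383 in control 4. Alb, with means of 824048 in dKO and 773160 in control livers, made up most of these sums and did not pass the test. Serpina1a, Ttr, Asgr1 and Hnf4a fell, with log2 changes of -0.81, -0.87, -0.44 and -0.41, and Pck1 and Tat rose, with 0.49 and 0.37. The share of hepatocyte markers that rose was near that of all genes. Without control 4, of the bile duct markers 9 rose and 0 fell (median 2.02), of the macrophage markers 9 rose and 0 fell (median 2.24) and of the hepatocyte markers 1 rose and 4 fell (median -0.29). The part of these cell types in the collagen results was not tested.

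A collagen chain must be hydroxylated, folded, secreted, trimmed and cross-linked before it forms matrix, and the genes for these steps were read beside the chains. In the list of folding and modification genes, 15 of the 21 tested rose, 3 fell and 3 passed in neither direction (median log2 change 0.64). Over all genes tested, 21.2% were higher and 17.0% lower, so the share of this list that fell was not above that of all genes. Crtap, part of the prolyl 3-hydroxylase complex, stood at 312 ± 28.5 in dKO and 144 ± 21.8 in control livers (log2 change 1.12). P3h3, another member of the prolyl 3-hydroxylase family, stood at 208 ± 31.9 in dKO and 81.7 ± 21 in control livers (log2 change 1.37). Plod3, a lysyl hydroxylase, stood at 699.5 ± 65 in dKO and 449 ± 42.5 in control livers (log2 change 0.64), and the collagen galactosyltransferase Colgalt1 at 1898 ± 106 in dKO and 1267 ± 51.5 in control livers (log2 change 0.58). Serpinh1, the collagen chaperone HSP47, named after its values were seen, rose, at 1031 ± 231 in dKO and 340.2 ± 246 in control livers (log2 change 1.80). The 3 that fell, also named after their values were seen, were Ppib, Mia3 and Mia2, with log2 changes of -0.39, -0.44 and -0.34. Ppib is a prolyl isomerase, and Mia3 and Mia2 help load large cargo at the exit sites of the endoplasmic reticulum.

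In the list of procollagen processing and cross-linking, 7 of the 12 tested rose, 2 fell and 3 passed in neither direction (median log2 change 1.16). The lists of this paragraph stand against 21.2% higher and 17.0% lower over all genes tested. The share of the processing list that fell was near that of all genes. Adamts2, the protease that removes the N-propeptides of fibrillar procollagens, stood at 817 ± 69.3 in dKO and 174 ± 84.2 in control livers (log2 change 2.33). Bmp1, which removes the C-propeptides, fell, at 1899 ± 139.6 in dKO and 2599 ± 197 in control livers (log2 change -0.45), while its enhancer Pcolce rose, at 420.01 ± 34.4 in dKO and 169.8 ± 58.4 in control livers (log2 change 1.36). Loxl2, a lysyl oxidase that cross-links type IV among other collagens, stood at 363 ± 73.6 in dKO and 68 ± 29.6 in control livers (log2 change 2.50). Of partners in fibril and network assembly, 11 of the 13 tested rose, 0 fell and 2 passed in neither direction (median log2 change 1.36). Nid1, which links type IV to laminin, stood at 2071 ± 254 in dKO and 385 ± 42.7 in control livers (log2 change 2.42), and its relative Nid2 at 247 ± 45.7 in dKO and 218 ± 40.6 in control livers (limma adjusted p = 0.444). Postn, the matricellular protein periostin, stood at 597 ± 84.1 in dKO and 172 ± 38.6 in control livers (log2 change 1.81). The small proteoglycan biglycan (Bgn), which binds type I fibrils, stood at 3933 ± 287 in dKO and 1407 ± 289.98 in control livers (log2 change 1.5). Its relative lumican (Lum), which binds collagen fibrils, stood at 1099 ± 288 in dKO and 178 ± 57.6 in control livers (log2 change 2.63). Among collagen receptors and uptake genes, 8 of the 10 tested rose, 0 fell and 2 passed in neither direction (median log2 change 1.08). The collagen-activated kinase Ddr1 stood at 419 ± 23.7 in dKO and 45.5 ± 27 in control livers (log2 change 3.34), and Mrc2, an endocytic collagen receptor, at 354 ± 75.8 in dKO and 52.7 ± 23.4 in control livers (log2 change 2.82). Lair1, an inhibitory collagen receptor of immune cells, stood at 204 ± 21 in dKO and 66.3 ± 10.1 in control livers (log2 change 1.62) and Itgb1, the beta chain of the collagen-binding integrins, at 5428 ± 131 in dKO and 3838 ± 217 in control livers (log2 change 0.50). Without control 4 the counts of rises were 14, 7, 12 and 8 in the 4 lists in the order given.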

How the data were processed

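RNA was sequenced from 8 whole livers, 4 dKO and 4 control. Per the submitters' processing notes, the build was mm10 and the tools named were DESeq2, featureCounts 1.5.0-p3, HISAT2 2.0.5 and fastp, without their roles. Annotation, strand setting and filters were not given in the sources used here. The authors' deposited table is named for FPKM, but 1 constant per library turns all its values into whole numbers (within 0.001), so it holds a signal of another kind, gene reads divided by 1 size factor per library. Multiplying back gave the reads. The planned log-scale test was kept.

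Of 22052 identifiers, 21796 matched a symbol in GENCODE M21 (GRCm38, the assembly that mm10 names), which also gave positions, mRNA lengths and 3' UTRs. Genes with a mean of 0.5 or more were tested on log2(value + 0.5) with limma 3.58.1 (trend, group only, R 4.3.3), Benjamini-Hochberg adjusted over 20055 genes, 2-sided, threshold 0.05. A check on simulated counts had 200 of 19554 genes changed. It found 82% of 2-fold and 98% of 4-fold changes, and 7.22% of its calls were unchanged genes. Far fewer genes changed in it than the 38.2% called in the livers. Alternatives used edgeR 4.0.16 and DESeq2 1.42.0 on the recovered reads, other scalings, filters and pseudocounts, a block by mouse number and leaving out each liver.

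Every collagen row is a member, with values of each liver where the mean was 100 or more, or 10 or more and called. From each other list, up to 4 called genes with the smallest adjusted p were eligible for naming. Alb, Acta2, Lrat, Nid2, Pck1, Tat, Eln, Mfap4, Gli1, Msln, Upk1b, Upk3b, Wt1 and Gpm6a, outside this rule, were named after their values were seen. The members and lists were chosen with earlier results of these data known.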

Additional observations from a re-analysis of the deposited data

Results flagged for a closer look

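A liver far from the other 3 of its group, by Dixon's criterion at the 95% level, was found for 11 of 64 groups formed by the 32 members with a mean of 10 or more, where chance gives about 1 in 20. Control 4 was the highest control in 7 of them: Col3a1 (4838 normalised reads), Col1a1 (1799), Col1a2 (2097), Col6a3 (376), Col5a2 (389.99), Col6a1 (565) and Col4a4 (27.4). The lowest dKO liver, dKO 1, stood apart for Col3a1 (9322), Col1a1 (4766) and Col4a1 (3536). For Col25a1, control 1 was apart at 1.03, which is 1 read. These genes share livers, so the flags are not independent.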

How the results depend on the processing

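Over 18 alternatives the number of collagens higher in dKO livers ranged from 21 (of 32 tested, filter at a mean of 10) to 25 and of those lower from 3 to 4, and 22 of the 24 rises were called wherever the gene was tested, the others being Col6a6 and Col9a2. Col9a2 was also lost with a pseudocount of 5, quantile normalization, DESeq2 and without dKO 3, control 1 or control 2, and Col17a1 was called without control 3 (adjusted p = 0.0397). Quantile normalization moved the median of all genes to -0.079, from 0.031, with 3638 genes higher and 4312 lower, against 4244 and 3410. It turned Col11a2 (-0.050) and Col7a1 (-0.34), neither of them called. Leaving out 1 liver turned the direction of uncalled members, with log2 changes of -0.11 to 0.29 for Col7a1, -0.53 to 0.19 for Col24a1, -1.29 to 0.0015 for Col28a1, -0.82 to 0.37 for Col6a4 and -0.30 to 0.57 for Col10a1, and the cause was not tested. Leaving out 1 liver gave log2 differences of 0.50 to 0.67 for Col1a1 over Col1a2, -0.029 to 0.10 for Col4a1 over Col4a2, -1.05 to -0.66 for Col5a1 over Col5a2, -0.46 to -0.24 for Col6a1 over Col6a2 (adjusted p = 0.0343 without control 4, exact permutation test), 0.72 to 1.00 for Col6a3 over Col6a1 and -0.84 to -0.63 for Col3a1 over Col1a1. Endothelial markers lower in dKO numbered 0 to 3 without 1 liver, and hepatocyte markers higher 1 to 2, with 1 at a pseudocount of 5, without a filter and with the replicate block.

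No pairing of the livers by mouse number was seen: the deviations of same-numbered livers from their group means correlated at 0.032, -0.069, 0.037 and 0.077 over genes. With 4 livers in each group, this cannot exclude a pairing. With the replicate block 24 collagens were higher and 3 lower, and 4021 and 3112 of all genes. For the chain ratios the block leaves 16 assignments and cannot pass the threshold: the log2 differences were 0.60, -0.88, 0.87 and -0.75 for Col1a1 over Col1a2, Col5a1 over Col5a2, Col6a3 over Col6a1 and Col3a1 over Col1a1, each with an exact permutation adjusted p = 0.15.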
